A study of Mus musculus with 6 samples.

Results

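The nuclear genes of the mitochondrial ribosome were taken as the protein-coding genes of the count table whose symbol is Mrpl or Mrps followed by a number, which gave 78 genes of 57010 in all. Of these, 49 carry the symbol of the large subunit (Mrpl) and 29 that of the small subunit (Mrps). Their RNA was measured in RAW 264.7 cells, a mouse macrophage line, all exposed to lipopolysaccharide before they received extracellular vesicles (EVs) of tendon stem cells. In the group called normoxic-EV (3 samples) the vesicles came from normoxic tendon stem cells, and in the group called hypoxic-EV (3 samples) from hypoxia-preconditioned ones. Macrophages without vesicles were not analysed here, and the labels give no dose, no time, no species for the tendon stem cells and no amount of lipopolysaccharide. The labels do not state that the 3 samples were grown as separate cultures, so the p-values rest on a spread that may be only technical. The sample labels call the vesicles of the normoxic-EV group normoxic-preconditioned.

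The mitochondrial ribosome is the machine in the mitochondrial matrix that translates the protein-coding messages of mitochondrial DNA, all of which encode subunits of the respiratory chain and ATP synthase. Its RNA comes from mitochondrial DNA, whereas every one of its proteins is encoded in the nucleus, made in the cytosol and imported. Many of these proteins have counterparts in the bacterial ribosome, and others are particular to mitochondria. The large subunit joins amino acids and releases the chain through an exit tunnel at the inner membrane, and the small subunit reads the message.

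In macrophages given hypoxic-EV, genes of this machine moved in both directions and by small amounts. With the threshold set at an adjusted p of 0.05 (edgeR quasi-likelihood F-test, adjusted over all genes tested), 18 of the 77 members with enough counts rose, 15 fell and 44 did not pass. Changes are given as the log2 ratio of hypoxic-EV to normoxic-EV ± SE. The members called made up 42.9%, where the background over all 13303 tested genes was 44.2%. The share that rose was 23.4% against a background of 22.7%, and the share that fell 19.5% against 21.5%, so neither share stood far from the background. The median log2 fold change was 0.024 over the members and -0.001 over all tested genes. The extremes were Mrpl12, which rose 1.44-fold, and Mrpl24, which fell 1.42-fold, and no member reached a 2-fold change. Among called genes, the median size of the log2 fold change was 0.28 in the members and 0.36 in all tested genes. The groups' CPM values (counts per 1000000, TMM-scaled) did not overlap in 42 of the 77 members, or 54.5%, against 52.8% of all tested genes. The 78th member, Mrpl53, had no count.

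Library totals ran from 16751665 to 23422328 counts, and the upper limit for a gene without counts, taken as 3 counts, was 0.129 to 0.179 CPM by library (counting error only). All 9 macrophage markers were detected, with a summed level of 10513 to 10946 CPM in normoxic-EV and 8495 to 8895 CPM in hypoxic-EV, where 6 fell, 2 rose and 1 was not called. Of 12 markers of stromal and tendon cells, 5 (Col1a2, Col3a1, Thy1, Tnmd and Postn) had no count and none passed the count filter, with a sum of 1.14 to 2.39 CPM in normoxic-EV and 0.9898 to 1.59 CPM in hypoxic-EV. All 8 markers of cycling cells rose, from a sum of 892 to 969 CPM in normoxic-EV to one of 1875 to 2057 CPM in hypoxic-EV, and their part in the members' values was not tested. Among lymphocyte markers Cd3e had no count, and Cd79a rose from 0.304 ± 0.147 CPM to 0.789 ± 0.0327 CPM (SD, n = 3). In bulk samples, fewer cells of a type and less RNA per cell cannot be told apart.

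The promoter stretches of the members with the smallest p in each subunit and direction are shown because these genes carry the changes described next. Each is the 250 bases before the RefSeq gene start (build GRCm38.p6, whereas the count table uses GRCm39), read 5′ to 3′ on the gene's strand. Mrpl12 and Mrps5 rose, and Mrpl24 and Mrps18a fell. Capitals mark a match to 1 of 4 motifs searched on both strands, which are CCGGAAG of ETS factors, GCATGCGC, a core of the NRF1 site, AAGATGGCG of YY1 and the E-box CACGTG.
Mrpl12, chr11:120484387-120484636, plus strand: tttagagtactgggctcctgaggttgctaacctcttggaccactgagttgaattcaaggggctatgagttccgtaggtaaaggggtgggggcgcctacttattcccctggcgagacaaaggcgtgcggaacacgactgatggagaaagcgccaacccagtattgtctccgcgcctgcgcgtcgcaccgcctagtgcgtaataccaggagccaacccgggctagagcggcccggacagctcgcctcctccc
Mrpl24, chr3:87919294-87919543, plus strand: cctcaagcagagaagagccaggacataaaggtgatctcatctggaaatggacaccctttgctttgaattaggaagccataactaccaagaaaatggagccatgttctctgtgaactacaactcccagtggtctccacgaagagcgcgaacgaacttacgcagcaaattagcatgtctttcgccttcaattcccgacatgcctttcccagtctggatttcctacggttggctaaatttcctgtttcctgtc
Mrps5, chr2:127587176-127587425, plus strand: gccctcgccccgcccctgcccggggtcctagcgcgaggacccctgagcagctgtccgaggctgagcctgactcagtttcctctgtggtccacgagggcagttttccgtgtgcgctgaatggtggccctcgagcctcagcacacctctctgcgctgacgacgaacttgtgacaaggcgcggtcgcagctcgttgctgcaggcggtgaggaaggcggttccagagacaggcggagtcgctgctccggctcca
Mrps18a, chr17:46110754-46111003, plus strand: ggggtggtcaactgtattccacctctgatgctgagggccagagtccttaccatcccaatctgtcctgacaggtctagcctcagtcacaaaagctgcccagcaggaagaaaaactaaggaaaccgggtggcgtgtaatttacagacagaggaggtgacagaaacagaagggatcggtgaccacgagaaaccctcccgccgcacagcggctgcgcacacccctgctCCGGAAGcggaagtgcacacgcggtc

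Of these 4 stretches, only that of Mrps18a held a match, the ETS letters at 26 bases before the start. ETS factors such as GABPA, and NRF1, are known regulators of nuclear genes for mitochondrial proteins. RefSeq held promoters for 69 of the 78 members, as 75 windows from 250 bases before to 50 after the start. The ETS letters were in 26 of 75 member windows (34.7%) and in 8.86% of all 32851 windows. Among windows of members that fell it was 9 of 16, among those of members that rose 3 of 16, and among those of members not called 13 of 42. The NRF1 core was in 8 of 75 member windows (10.7%, against 2.71% of all). It was in 3 of 16 windows of members that fell, 0 of 16 of those that rose and 5 of 42 of those not called. The YY1 letters were in 8 of 75 (10.7%, against 1.40%) and the E-box in 7 of 75 (9.33%, against 7.15%). By direction, the YY1 letters were in 1 of 16 windows of members that fell and 1 of 16 of those that rose, and the E-box in 1 of 16 and 3 of 16. In windows of members not called, the YY1 letters were in 6 of 42 and the E-box in 3 of 42. Counted by gene, 25 tested members had the ETS letters, of which 9 fell and 3 rose, and 43 did not, of which 6 fell and 11 rose. This difference was noticed after the values were seen and was not tested, and a match is a description of letters and not of binding. Stretches around the ETS letters are shown for 4 further members that fell (build GRCm38.p6). The 3 members with the letters that rose and the 13 not called are not shown, so these stretches do not bear on direction. Here capitals mark the ETS letters alone, as CCGGAAG or the reverse complement CTTCCGG. The Mrps18c stretch also holds the E-box, in lower case.
Mrps18c, chr5:100798576-100798635, plus strand: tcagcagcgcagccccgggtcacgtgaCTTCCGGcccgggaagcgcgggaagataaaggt
Mrps16, chr14:20393532-20393591, minus strand: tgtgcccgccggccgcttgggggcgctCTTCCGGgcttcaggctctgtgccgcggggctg
Mrpl52, chr14:54426835-54426894, plus strand: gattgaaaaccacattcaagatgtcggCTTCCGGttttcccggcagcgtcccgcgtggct
Mrpl27, chr11:94653709-94653768, plus strand: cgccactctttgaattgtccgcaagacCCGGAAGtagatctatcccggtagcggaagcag

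**Figure D1:**
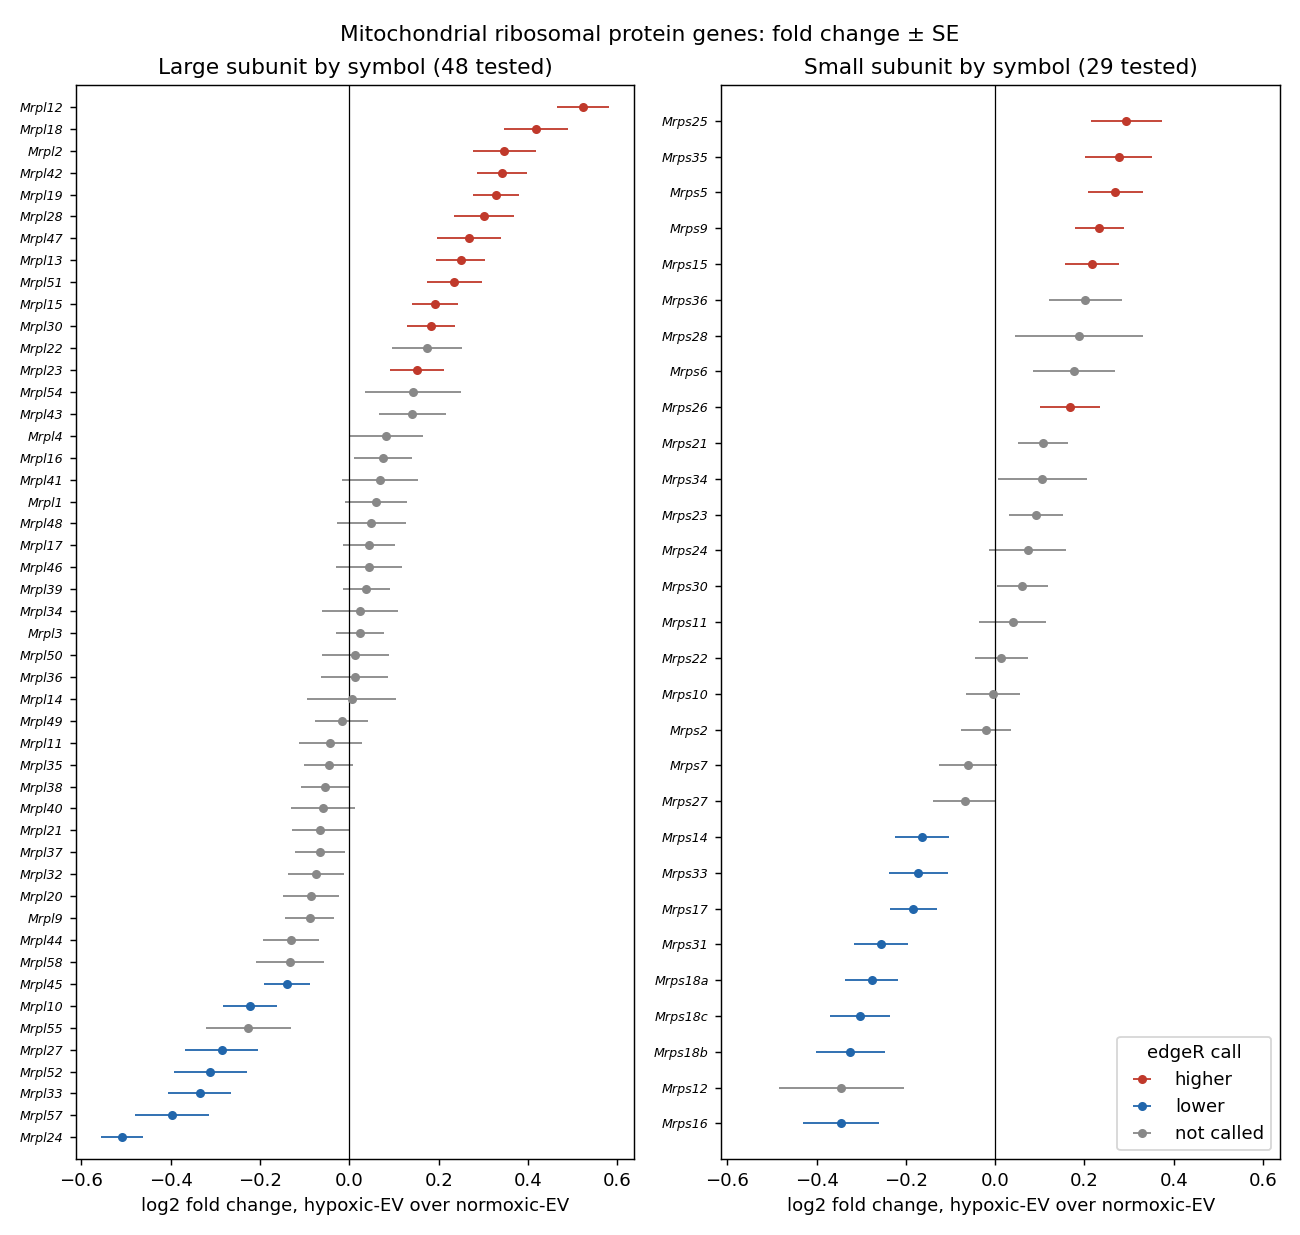
Fitted log2 fold change (hypoxic-EV over normoxic-EV, x axis) of each tested member, ordered by value, for 48 large subunit and 29 small subunit genes by symbol. Bars are the SE, and colours give the edgeR call. Both subunits run from called decreases to called increases through a middle of genes not called.

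Among large subunit genes 12 of 48 rose, 7 fell and 29 did not pass (median log2 fold change 0.024). Among small subunit genes 6 of 29 rose, 8 fell and 15 did not pass (median 0.04). The background for both subunits, over all tested genes, was 22.7% higher and 21.5% lower. The difference between the subunits was not tested. The counts, and the medians, which lay 0.016 apart, are descriptions, and leaving out 1 library could turn the sign of the distance between the medians. By place in the known structure, Mrps30 and Mrps18a sit in the large subunit and Mrps36 is not a stable part of the ribosome. With that assignment the large subunit had 12 genes that rose and 8 that fell of 50 (24.0% and 16.0%). The small subunit had 6 and 7 of 26 (23.1% and 26.9%).

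The stalk of the large subunit, which recruits translation factors, is built on the proteins of Mrpl10, Mrpl11, Mrpl12 and Mrpl53. Mrpl12 (ENSMUSG00000039640, chromosome 11, 120375439 to 120379891, plus strand, GRCm39), the L7/L12 counterpart, stood at 52.1, 47.9 and 45.9 CPM in the normoxic-EV libraries and 70.4, 68.9 and 70.1 CPM in the hypoxic-EV libraries. Every hypoxic-EV library lay above every normoxic-EV library (0.52 ± 0.0578 on the log2 scale, adjusted p = 2.45e-07). Mrpl10, whose protein anchors the stalk, went the other way, with 45.6, 47.6 and 45.4 CPM in the normoxic-EV libraries and 40.1, 37.8 and 40.8 CPM in the hypoxic-EV libraries. The groups did not overlap (-0.22 ± 0.0611 on the log2 scale, adjusted p = 0.00533). Mrpl11, at the stalk base, was not called (log2 fold change -0.042, 95% interval -0.19 to 0.10). Of the 3 stalk genes with counts, 1 rose, 1 fell and 1 did not pass. Over all tested genes, 22.7% rose and 21.5% fell, and the groups did not overlap in 52.8%. Mrpl53 had 0 counts in all 6 libraries, where the upper limit was 0.129 to 0.179 CPM by library (counting error only). All 900 bases of its span on chromosome 6 lie within Gm42688, a gene on the same strand that had 177 counts, and whether its reads were lost to that overlap was not tested.

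At the exit site, where the new chain leaves the large subunit towards the membrane, 2 of 6 genes were called higher and 2 lower, where 22.7% and 21.5% of all tested genes were, and 1 call in each direction (Mrpl23 and Mrpl45) was lost in several other settings. Mrpl24 (ENSMUSG00000019710, chromosome 3, 87826813 to 87830979, plus strand, GRCm39), which encodes a protein at the rim of the tunnel exit, stood at 177, 182 and 176 CPM in the normoxic-EV libraries and 128, 120.1 and 128 CPM in the hypoxic-EV libraries. It had more counts than any other member, and its groups lay far apart (-0.51 ± 0.0471 on the log2 scale, adjusted p = 1.89e-08). Rrnad1, on the other strand, overlaps 1072 bases of it, at 13.6% of its total count. Mrpl45, encoding the protein that ties the ribosome to the inner membrane, had a smaller decrease (log2 fold change -0.14, adjusted p = 0.0336), a call that was lost on leaving out any of 3 libraries (adjusted p = 0.193 without normoxic-EV replicate 1, 0.0623 without normoxic-EV replicate 2, 0.107 without hypoxic-EV replicate 1). Mrpl47, the counterpart of the bacterial exit protein L29, rose (log2 fold change 0.27, adjusted p = 0.00443). It overlaps Actl6a and Ndufb5 on the other strand, at 299% and 202% of its count, and both rose. Mrpl23 lay at the threshold (log2 fold change 0.15, adjusted p = 0.0455) and was called in 3 of 13 other settings. Its call was lost without any but 1 of the libraries (adjusted p = 0.0672 without normoxic-EV replicate 1, 0.132 without normoxic-EV replicate 2, 0.109 without normoxic-EV replicate 3, 0.0575 without hypoxic-EV replicate 2, 0.116 without hypoxic-EV replicate 3). Mrpl22 (0.17) and Mrpl17 (0.044) were not called.

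In the central protuberance, a knob of the large subunit that faces the small subunit and the tRNAs, Mrpl18 rose, Mrpl27 fell, and Mrpl38, Mrpl40, Mrpl46 and Mrpl48 were not called. Mrpl18 stood at 26.2, 25.1 and 24.9 CPM in the normoxic-EV libraries and 36.1, 34.1 and 31.7 CPM in the hypoxic-EV libraries. All hypoxic-EV values of Mrpl18 were the higher ones (0.42 ± 0.0711 on the log2 scale, adjusted p = 6.31e-05), and 52.8% of all tested genes had groups without overlap. Mrpl18 shares 645 bases with Tcp1 on the other strand, which had 1541% of its count and rose by 0.29 on the log2 scale. The reads of the pair therefore cannot be assigned with certainty. Mrpl27, whose protein reaches towards the catalytic centre, stood at 31.9, 26.4 and 27.0 CPM in the normoxic-EV libraries and 24.1, 21.8 and 23.9 CPM in the hypoxic-EV libraries (-0.29 ± 0.0810 on the log2 scale, adjusted p = 0.00675). Its adjusted p was 0.0794 without normoxic-EV replicate 1, its highest library. Its partner on the other strand, Eme1, had 47.0% of its count and rose.

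Other large subunit genes that rose included proteins shared with bacteria. Mrpl2, the counterpart of a universal protein beside the catalytic centre, stood at 26.02, 28.6 and 26.4 CPM in the normoxic-EV libraries and 32.2, 35.7 and 34.8 CPM in the hypoxic-EV libraries (0.35 ± 0.0703 on the log2 scale, adjusted p = 0.000398). Mrpl19 was at 57.6, 56.8 and 58.3 CPM in the normoxic-EV libraries and 70.9, 71.5 and 74.4 CPM in the hypoxic-EV libraries (0.33 ± 0.0524 on the log2 scale, adjusted p = 3.02e-05). In both, no hypoxic-EV library fell as low as the highest normoxic-EV library, and 52.8% of all tested genes had groups without overlap. Mrpl42, particular to mitochondria, rose alike, with 56.8, 60.3 and 53.9 CPM in the normoxic-EV libraries and 73.5, 70.8 and 72.1 CPM in the hypoxic-EV libraries (0.34 ± 0.0556 on the log2 scale, adjusted p = 3.8e-05). The remaining increases were those of Mrpl28, Mrpl13, Mrpl51, Mrpl15 and Mrpl30, at log2 fold changes of 0.30, 0.25, 0.24, 0.19 and 0.18. Mrpl13 overlaps Mtbp on the other strand by 341 bases, and Mtbp rose by 0.27 on the log2 scale.

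Decreases in the large subunit also took in both kinds of protein. Mrpl57, encoding a small protein particular to mitochondria, stood at 25.5, 23.3 and 24.1 CPM in the normoxic-EV libraries and 18.8, 16.5 and 19.97 CPM in the hypoxic-EV libraries (-0.40 ± 0.0829 on the log2 scale, adjusted p = 0.000536). Mrpl33, the counterpart of a small bacterial protein, was at 34.3, 31.4 and 34.3 CPM in the normoxic-EV libraries and 26.7, 27.6 and 25.1 CPM in the hypoxic-EV libraries (-0.34 ± 0.0703 on the log2 scale, adjusted p = 0.000559). Mrpl52, again particular to mitochondria, was at 28.8, 25.8 and 26.4 CPM in the normoxic-EV libraries and 21.5, 19.7 and 23.9 CPM in the hypoxic-EV libraries (-0.31 ± 0.0814 on the log2 scale, adjusted p = 0.00371). In these 3 genes the groups did not overlap, as in 52.8% of all tested genes. Rbks overlaps Mrpl33 on the other strand at 26.9% of its count.

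**Figure D2:**
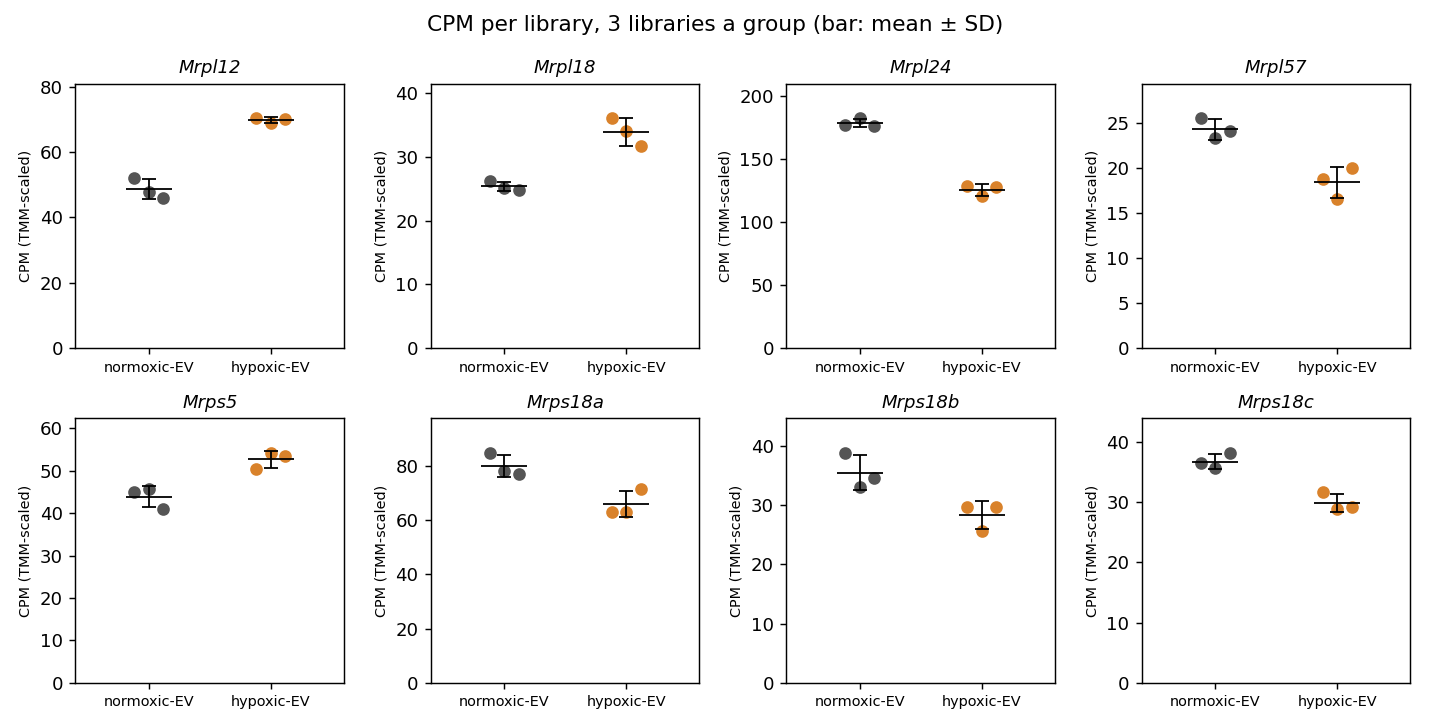
TMM-scaled CPM (y axis, from 0) in each of 3 normoxic-EV and 3 hypoxic-EV libraries for 8 members, with the mean ± SD as bars. Mrpl12, Mrpl18 and Mrps5 lie higher with hypoxic-EV, and Mrpl24, Mrpl57, Mrps18a, Mrps18b and Mrps18c lie lower, with no overlap of the groups. Of all tested genes, 52.8% show no overlap.

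The 3 related genes Mrps18a, Mrps18b and Mrps18c were each called lower, as were 21.5% of all tested genes. They are paralogs of the bacterial protein S18, of which the structures place 1 in the large subunit (Mrps18a) and the other two in the small subunit. Mrps18a (ENSMUSG00000023967, chromosome 17, 46421912 to 46439836, plus strand, GRCm39) stood at 84.8, 78.1 and 77.1 CPM in the normoxic-EV libraries and 63.2, 62.9 and 71.5 CPM in the hypoxic-EV libraries (-0.28 ± 0.0598 on the log2 scale, adjusted p = 0.000743). Mrps18b was at 38.8, 33.0 and 34.5 CPM in the normoxic-EV libraries and 29.6, 25.6 and 29.7 CPM in the hypoxic-EV libraries (-0.32 ± 0.0772 on the log2 scale, adjusted p = 0.00175). Mrps18c was at 36.4, 35.6 and 38.1 CPM in the normoxic-EV libraries and 31.6, 28.8 and 29.1 CPM in the hypoxic-EV libraries (-0.30 ± 0.0673 on the log2 scale, adjusted p = 0.000989). In each gene the highest hypoxic-EV library lay below the lowest normoxic-EV library, and the 3 log2 fold changes lay within 1 SE of each other. Groups that do not overlap, in either direction, were found in 52.8% of all tested genes. All 3 were called in every one of 13 other settings.

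In the body of the small subunit Mrps5 rose and Mrps16 and Mrps17 fell. Mrps5, whose protein lies by the entry path of the message, stood at 45.0, 45.6 and 41.0 CPM in the normoxic-EV libraries and 50.4, 54.2 and 53.5 CPM in the hypoxic-EV libraries (0.27 ± 0.0619 on the log2 scale, adjusted p = 0.00128). Mrps16 was at 23.2, 23.3 and 22.4 CPM in the normoxic-EV libraries and 20.5, 16.5 and 17.4 CPM in the hypoxic-EV libraries (-0.35 ± 0.0851 on the log2 scale, adjusted p = 0.00233). Neither pair of groups overlapped. Mrps17 changed by -0.18 on the log2 scale (adjusted p = 0.00825, 0.0799 without normoxic-EV replicate 3). Mrps12, the counterpart of the decoding protein S12, had values of 7.24, 7.88 and 7.11 CPM in the normoxic-EV libraries and 6.67, 4.64 and 6.20 CPM in the hypoxic-EV libraries. The groups did not overlap, as in 52.8% of all tested genes. The log2 fold change of -0.34 (SE 0.140) matched that of Mrps16 in size but did not pass (adjusted p = 0.0521). It passed under RLE scaling (adjusted p = 0.0489), with the stricter count filter (0.0438), with limma-voom (0.0447) and without hypoxic-EV replicate 1 (0.0266).

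In the head of the small subunit Mrps9 rose, with 54.0, 53.9 and 54.4 CPM in the normoxic-EV libraries and 62.8, 62.0 and 66.0 CPM in the hypoxic-EV libraries (0.23 ± 0.0542 on the log2 scale, adjusted p = 0.00139). Mrps14 fell by less (log2 fold change -0.16, adjusted p = 0.0317), a call that was likewise lost on leaving out any of 3 libraries (adjusted p = 0.213 without normoxic-EV replicate 1, 0.0637 without normoxic-EV replicate 3, 0.139 without hypoxic-EV replicate 1). Mrps7, Mrps10 and Mrps24 were not called. On the platform Mrps15 rose (log2 fold change 0.22, adjusted p = 0.00669), Mrps18c fell, as described above, and Mrps6, Mrps11 and Mrps21 were not called. Among proteins particular to mitochondria, Mrps31 fell from 50.3 ± 2.31 CPM to 42.2 ± 0.893 CPM (-0.26 ± 0.0602 on the log2 scale, adjusted p = 0.00154), and Mrps33 by 0.17 on the log2 scale. Mrps25 and Mrps35 rose from 21.6 ± 1.71 CPM to 26.4 ± 1.59 CPM and from 28.2 ± 2.31 CPM to 34.1 ± 2.23 CPM (log2 fold changes 0.29 and 0.28, SD, n = 3). Mrps25 overlaps Nr2c2 on the other strand, which had 216% of its count. Mrps26, at an adjusted p of 0.0497, was called in 4 of 13 other settings, and Mrps33 in 6. Leaving out 1 library ended the call of Mrps26 in 4 cases (adjusted p = 0.185 without normoxic-EV replicate 2, 0.14 without normoxic-EV replicate 3, 0.0589 without hypoxic-EV replicate 1, 0.23 without hypoxic-EV replicate 3). For Mrps33 it did so in 4 cases (adjusted p = 0.195 without normoxic-EV replicate 1, 0.0751 without normoxic-EV replicate 2, 0.126 without hypoxic-EV replicate 1, 0.0641 without hypoxic-EV replicate 3).

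Mrps30, which the structures place in the large subunit, was not called (log2 fold change 0.061, 95% interval -0.058 to 0.18). Mrps36, now known as a part of the oxoglutarate dehydrogenase complex, stood at 18.1, 16.9 and 19.0 CPM in the normoxic-EV libraries and 20.5, 22.2 and 19.6 CPM in the hypoxic-EV libraries. Its groups did not overlap, as in 52.8% of all tested genes, and it missed the threshold (log2 fold change 0.20, adjusted p = 0.0522). It passed without normoxic-EV replicate 3 (adjusted p = 0.0479) and without hypoxic-EV replicate 3 (adjusted p = 0.0395).

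Of the 44 tested members not called, 31 had a 95% interval of the log2 fold change within ±0.25, so changes larger than that are outside their intervals. Those with the most counts were Mrpl3 and Mrpl9 in the large subunit and Mrps2 and Mrps21 in the small. Mrpl3 stood at 106, 102 and 104 CPM in the normoxic-EV libraries and 97.1, 111 and 108 CPM in the hypoxic-EV libraries, and Mrps2 at 73.2, 66.2 and 65.3 CPM in the normoxic-EV libraries and 65.4, 67.4 and 68.6 CPM in the hypoxic-EV libraries. In both the groups overlapped, and the intervals ran from -0.088 to 0.13 and from -0.14 to 0.10. The large subunit genes not called ranged from -0.23 (Mrpl55) to 0.17 (Mrpl22), and the small subunit genes not called from -0.34 (Mrps12) to 0.20 (Mrps36).

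Genes that rose and genes that fell were found both among members with a bacterial counterpart and among those particular to mitochondria. Of 46 with a counterpart 13 rose (28.3%) and 8 fell (17.4%, median 0.032). Of 30 tested that are particular to mitochondria 5 rose (16.7%) and 7 fell (23.3%, median 0.013). Over all tested genes 22.7% rose and 21.5% fell. The difference between these kinds of member was not tested.

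Summed over the members, the level did not separate the groups. The summed CPM was 3420.0, 3267 and 3268 in the normoxic-EV libraries and 3300.2, 3331 and 3357 in the hypoxic-EV libraries, so the highest and the lowest were both normoxic-EV. The members took 0.331 ± 0.00789 with normoxic-EV against 0.333 ± 0.00168 with hypoxic-EV, in percent of all counts (SD, n = 3). Large over small subunit CPM gave ratios of 1.90 ± 0.0249 with normoxic-EV against 1.94 ± 0.0257 with hypoxic-EV (SD, n = 3), with 1 hypoxic-EV library (replicate 3, at 1.91) inside the normoxic-EV range.

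Levels are compared between genes per length, as FPKM deposited by the authors. The median member was at 15.2 FPKM (mean of 6 libraries), against 329 FPKM for the cytoplasmic ribosomal protein genes, 40.4 FPKM for nuclear genes of the respiratory complexes and 6.05 FPKM for all tested genes. The central 50% of members lay between 10.2 and 23.6 FPKM, although most of these proteins enter each ribosome in equal numbers. The highest 2 of each subunit were Mrps21 at 79.4, Mrpl24 at 67.2, Mrpl12 at 38.6 and Mrps23 at 34.4 FPKM. The lowest 2 of each with counts were Mrpl48 at 2.82, Mrps35 at 3.61, Mrps25 at 3.65 and Mrpl33 at 4.08 FPKM. The length the authors divided by, recovered from counts and FPKM, was 739 bases for Mrps21 and 8152, 8631, 6576 and 7326 bases for the lowest 4, so the lowest levels per length were those of long gene models. Across the 77 tested members the Spearman correlation of the log2 fold change with FPKM was -0.13 and with length 0.084, given as descriptions over genes that share libraries.

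**Figure D3:**
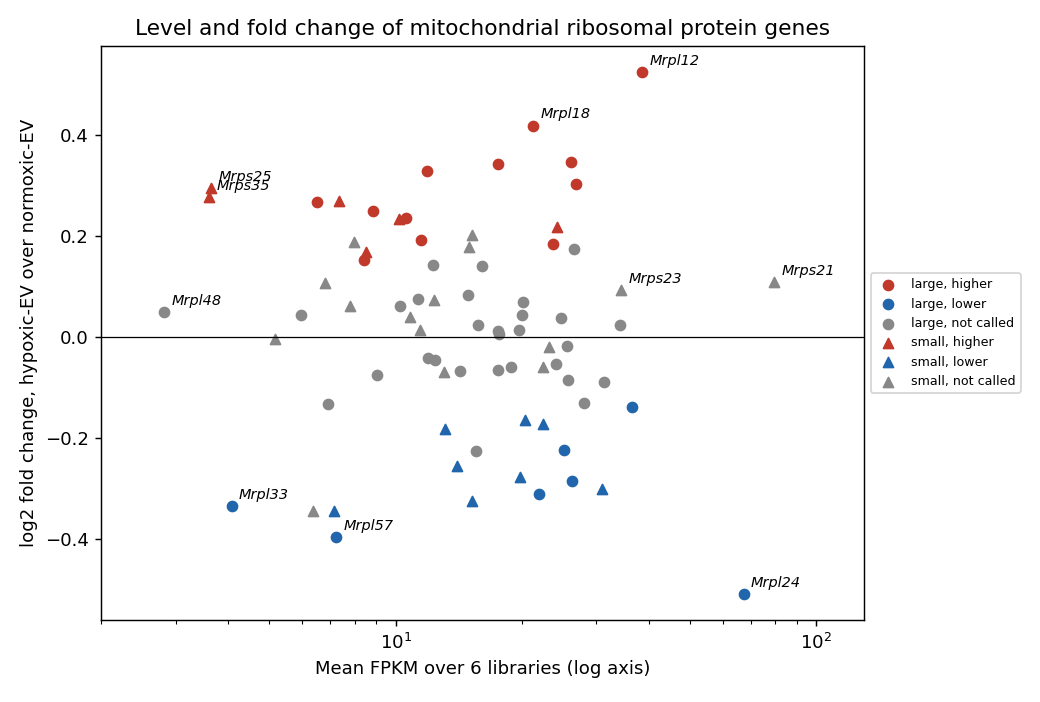
Mean FPKM over 6 libraries (x axis, log) against the log2 fold change (y axis) for the 77 tested members. Circles are large and triangles small subunit genes by symbol, coloured by the edgeR call, and increases and decreases occur at low and high levels alike.

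Of 5 mitoribosomal proteins with other symbols, 2 rose (40%), 1 fell (20%) and 2 were not called. The background over all tested genes was 22.7% higher and 21.5% lower. Dap3, encoding a GTP-binding protein of the small subunit head, rose, from 90.9 ± 2.12 CPM to 115 ± 6.17 CPM (0.34 ± 0.0515 on the log2 scale, adjusted p = 1.35e-05). Ptcd3, an RNA-binding protein gene of the small subunit, rose, from 68.4 ± 0.911 CPM to 88.3 ± 4.38 CPM (0.37 ± 0.0528 on the log2 scale, adjusted p = 8.55e-06). Aurkaip1, another small subunit gene, fell (log2 fold change -0.21, adjusted p = 0.00968), while Chchd1 (0.04) and Gadd45gip1 (0.14), the latter a large subunit gene, did not pass.

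The genes that build and serve the mitochondrial ribosome are given by list, beside the background of 22.7% higher and 21.5% lower over all tested genes, and differences between the lists were not tested. Of 27 assembly factors 1 rose (3.70%) and 7 fell (25.9%, near the background; median -0.078). The GTPase gene Noa1 rose by 0.48 (SE 0.0772), whereas Mterf3, whose protein binds mitochondrial nucleic acid, and the helicase gene Ddx28 had log2 fold changes of -0.32 and -0.34. Of 17 translation factors and partners 5 rose (29.4%) and 0 fell (median 0.047). Lrpprc, which stabilises mitochondrial messages, Oxa1l, the insertase that receives the new chain at the inner membrane, and Guf1 rose by 0.35, 0.44 and 0.42 (adjusted p at most 0.000253). Of 20 genes for mitochondrial tRNA charging 8 rose (40%) and 1 fell (5%; median 0.16), with Cars2 at 0.59, Aars2 at 0.61 and Iars2 at 0.28. Of 12 genes of mitochondrial transcription and genome upkeep 0 rose and 1 (8.33%), Mterf1a, fell (log2 fold change -0.39), and the next by p, Tefm (-0.17) and Mgme1 (-0.13), did not pass.

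The members were set beside the lists most like them. Among genes of the cytoplasmic ribosome 39 of 79 rose (49.4%) and 4 fell (5.06%, median 0.14). Of 90 nuclear genes of the respiratory complexes 34 rose (37.8%) and 6 fell (6.67%, median 0.11). In the members 18 of 77 rose (23.4%) and 15 fell (19.5%), where 22.7% and 21.5% of all tested genes did. Whether the lists differ was not tested, and both comparison lists share the 6 libraries with the members. The 13 protein-coding genes of the mitochondrial genome, the messages that this ribosome translates, each rose (median 0.72), for example mt-Nd1 from 1253 ± 48.3 CPM to 2433 ± 57.0 CPM. Counts on the mitochondrial genome were 2.17 ± 0.0540 with normoxic-EV against 2.99 ± 0.0747 with hypoxic-EV, in percent of all counts (SD, n = 3), while the share on the members overlapped between the groups.

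**Figure D4:**
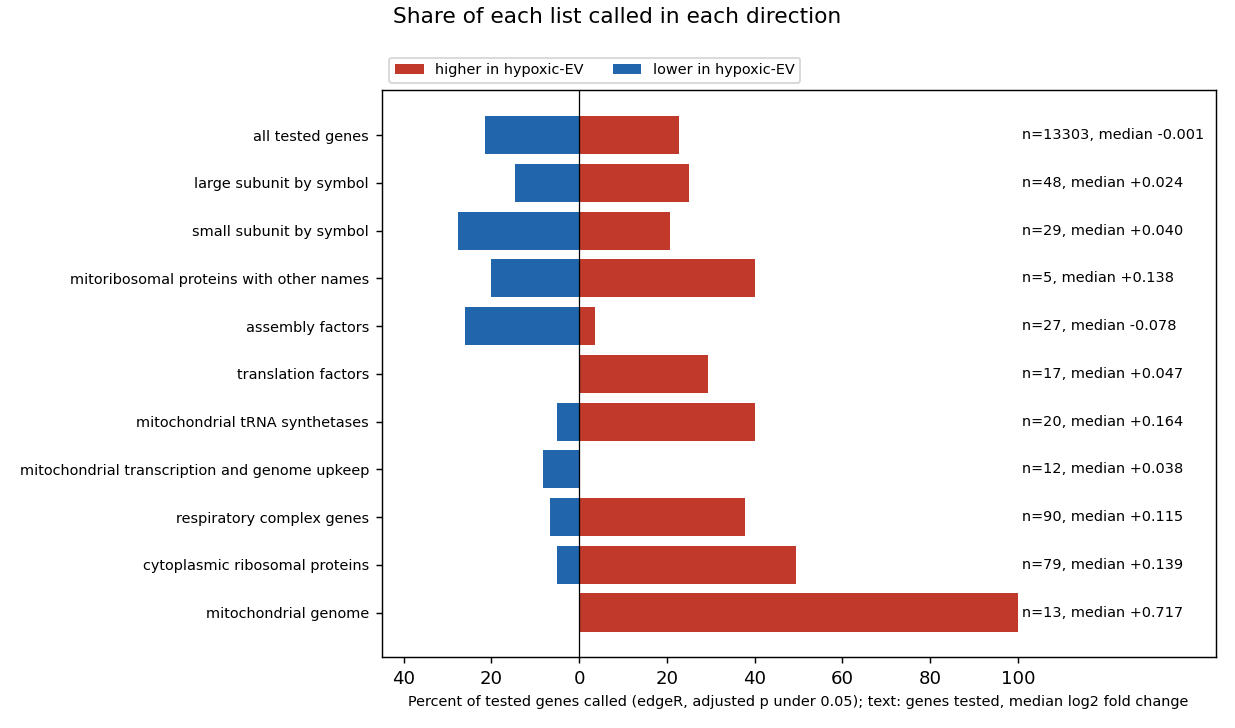
Percent of tested genes called higher (right) or lower (left) in hypoxic-EV by edgeR for all tested genes, both subunits and related lists, with the number tested and the median log2 fold change. The members have calls on both sides, whereas calls in the cytoplasmic ribosomal protein and respiratory complex lists lie mostly to the right.

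Several members overlap neighbours on the genome or have copies. By gene bounds, 41 of 78 members overlap another gene, and in 19 a single overlapping gene had at least 20% of the member's count, among them 6 of the 33 called members (Mrpl13, Mrpl18, Mrpl27, Mrpl33, Mrpl47 and Mrps25). Of the 6 processed pseudogenes with a member's symbol the largest totals were 533 counts for Mrpl48-ps and 342 for Mrpl23-ps1 over 6 libraries. In the authors' deposited table of 462 genes, whose smallest absolute log2 fold change was 1.0008, there were 0 members.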

How the data were processed

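Poly(A) RNA of 6 samples was sequenced paired-end from TruSeq libraries, per the labels' protocols. HISAT2, featureCounts, DESeq2 and the build GRCm39 are named in the submitters' processing notes; versions, annotation and strand setting are, in the sources used here, not given. The authors deposited whole-number counts for 57010 genes, FPKM values (equal to counts over library total and a fixed length within a relative tolerance of 1e-06), a table of counts divided by 1 size factor per library (a signal), and a table of their comparison with log2 fold changes, a test score and p-values for 462 genes. Per the file headers, each per-sample column names 1 sample.

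The test was that of edgeR 4.0.16 (R 4.3.3): filterByExpr (minimum count 10, minimum total 15, leaving 13303 genes), TMM scaling, a two-sided quasi-likelihood F-test of hypoxic-EV against normoxic-EV, and Benjamini-Hochberg adjustment over all genes. The SE is the size of the log2 fold change over the square root of F. Tests were checked on simulated data. The members and lists were chosen with earlier results of these data known. Members were named by rule: per subunit up to 5 called in each direction of smallest p with at least 5 CPM, the 2 most abundant not called, the 2 highest and lowest in FPKM, and all below the filter, with the Mrps18 paralogs, Mrps30 and Mrps36; places in the structure were assigned, and further members named, after values were seen. In related lists the 3 genes of smallest p were named. Alternatives were other scalings, filters, DESeq2 1.42.0, limma-voom (3.58.1), a replicate block and leaving out each library. Pairs of libraries of a group differed by more than counting noise (chi-square per degree of freedom 2.72 to 5.84), so none was counted as a library deposited more than once; this does not show separate cultures. Some marker values are not reported here.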

Additional observations from a re-analysis of the deposited data

How the results depend on the processing

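Over 13 other settings (RLE scaling, library totals alone, no count filter, a stricter filter of at least 1 CPM in every library, DESeq2, limma-voom, a replicate block and the removal of each library in turn), all counts of called members stayed within 1.5 times the reported ones, and no called member changed sign. Of the 33 called members 26 were called in all 13 settings, 16 that rose and 10 that fell; the calls of Mrpl23, Mrpl27, Mrpl45, Mrps14, Mrps17, Mrps26 and Mrps33 were lost in at least 1. Of the 44 members not called, 6 (Mrpl4, Mrpl22, Mrpl55, Mrps6, Mrps12 and Mrps36) were called in at least 1. DESeq2 called 16 higher and 14 lower, and without a count filter the numbers were 17 and 12. With 1 library left out, 17 to 18 members were higher and 11 to 15 lower, with the smallest number lower without normoxic-EV replicate 1, and the members' median log2 fold change ran from 0.0026 to 0.042. The difference of the subunit medians ran from -0.049 to 0.0072 over these, so its sign was not stable. With the replicate block 16 were higher and 14 lower. Same-numbered libraries deviated from their group means with correlations of -0.0480 to -0.0199, and libraries did not each correlate best with their own number. These correlations gave no sign of pairing by number, but with 3 libraries a group a weak pairing could have been missed. Depth limits the least abundant members: the SE of the log2 fold change was 0.0471 for Mrpl24 and 0.143 for Mrps28.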
